A study of Mus musculus with 6 samples.

Results

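The cells described here are the non-cycling natural killer (NK) cells of mouse pancreatic tumors treated with an engineered cytokine. They are the 795 cells that the study's annotation placed in its NK cluster, out of 2084 annotated T and NK cells in 3 libraries. A separate cluster of 68 cycling NK cells was not included. CD45+ cells had been captured with beads from subcutaneous 6694c2vTRP1 tumors, a pancreatic ductal adenocarcinoma line inoculated at 250000 cells into C57BL/6 mice, and read by droplet-based 5' single-cell RNA sequencing. The treatments were PBS, 26 µg per mouse of mono-IL10, which is human IL-10 engineered as a monomer, or 30.6 µg per mouse of IL10/2-Trikine, which links that cytokine to a binder of the IL-2 receptor beta chain. All were given in 2 doses, every other day starting on day 8, and tumors were collected on day 14. The 5 mice of a group carried different antibody hashtags and were pooled, so that every treatment is 1 library, and what the treatment did and what the library preparation did cannot be told apart. A transplanted line under the skin is a limited model of a tumor of the pancreas. The same PBS mice served as the reference of both treated groups, so the comparisons are not independent.

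NK cells are innate lymphocytes that kill stressed or transformed cells without prior priming. They do so by releasing granules that hold perforin, which opens the target's membrane, and granzymes, the proteases that then enter it. Whether they fire depends on a balance of activating and inhibitory receptors. Many activating receptors signal through the adaptors Tyrobp and Fcer1g. Inhibitory receptors that read class I molecules include CD94/NKG2A and many, though not all, members of the Ly49 family. IL-2 and IL-15 reach NK cells through the shared beta and gamma chains Il2rb and Il2rg, and signal mainly through STAT5. IL-10 signals through Il10ra and Il10rb, mainly via STAT3.

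The PBS library held 170 of the NK cells, the mono-IL10 library 253 and the IL10/2-Trikine library 372. A mouse had been assigned to 96, 180 and 189 of them. The other 43.5%, 28.9% and 49.2% carried no hashtag call and entered no test. With a minimum of 10 NK cells per mouse, 5 PBS mice, 4 mono-IL10 mice and 5 IL10/2-Trikine mice were used, and mono-IL10 mouse 3 with 9 cells was left out. Summed UMIs per mouse ran from 33913 to 128696 in PBS, from 171570 to 320616 in mono-IL10 and from 43848 to 158387 in IL10/2-Trikine. The mono-IL10 library was deeper, with a median of 4846 UMIs per NK cell against 3086 in PBS and 2532 in IL10/2-Trikine, while mitochondrial UMIs were at a median of 1.52%, 1.52% and 1.58%. Between pairs of libraries 408 to 700 barcodes coincided, but 0 of them in NK cells.

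The label was checked against markers. Tyrobp was detected in 98.5% of the NK cells, the receptor chain Klre1 in 66.8%, NK1.1 (Klrb1c) in 59.3%, the granzyme Gzma in 56.9% and the activating receptor NKp46 (Ncr1) in 44.3%. The corresponding shares in the 840 non-cycling T cells were 30.8%, 17.3%, 10.6%, 13.7% and 5.12%. The T cell receptor component Cd3e was seen in 1.13% of the NK cells against 71.0% of those T cells, and the proliferation gene Mki67 in 4.65% against 58.8% of the cycling NK cells. Since the clusters were drawn from these same transcripts, the shares describe the cells and test nothing. Genes that also mark type 1 innate lymphoid cells, close relatives of NK cells, were read beside the same T cells, whose median was 2756 UMIs against 3034 in the NK cells. Tmem176b was detected in 20.1% of the NK cells and 6.07% of the T cells, and Tmem176a in 13.8% and 2.98%. Itga1 was detected in 31.6% and 19.5%, but the T cells in the clusters that the study named naive reached 28.9%. Cxcr6 (10.2% against 35.1%), Il7r (9.31% against 42.3%) and Cd200r1 (4.53% against 7.62%) were less frequent in the NK cells than in the T cells. Each of these genes was less frequent still in the 68 cycling NK cells, whose median was 3440 UMIs. There Tmem176b was detected in 4.41%, Tmem176a in 0%, Itga1 in 14.7%, Cxcr6 in 1.47%, Il7r in 1.47% and Cd200r1 in 0%. Eomes, another NK marker, was detected in 30.6% of the NK cells, 58.8% of the cycling NK cells and 7.5% of the T cells.

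IL10/2-Trikine tumors held proportionally more of these cells. NK cells made up 55.8%, 70.1%, 73.1%, 81.3% and 76.6% of the non-cycling annotated T and NK cells in the 5 IL10/2-Trikine mice. In the PBS mice they made up 19.6%, 46.2%, 31.0%, 32.3% and 39.4%, and in the mono-IL10 mice 37.0%, 38.04%, 30%, 29.0% and 41.3%. Each IL10/2-Trikine mouse was above every mouse of both other groups. Group means were 71.4% ± 9.64 (SD, n = 5) with IL10/2-Trikine, 33.7% ± 9.94 (SD, n = 5) with PBS and 35.1% ± 5.33 (SD, n = 5) with mono-IL10. The gain of 37.7 percentage points over PBS and that of 36.3 points over mono-IL10 each had an exact two-sided permutation p of 0.00794, the smallest that 5 mice against 5 can give, and an adjusted p of 0.0119 over 3 comparisons. For mono-IL10 against PBS the difference was 1.38 points (exact permutation p = 0.825). A share among annotated T and NK cells moves with the T cells too. Of non-cycling T cells, with or without a mouse, there were 274, 454 and 112 in the PBS, mono-IL10 and IL10/2-Trikine libraries, and with cycling clusters in the denominator IL10/2-Trikine stood 18.8 points above PBS (p = 0.0159 by the exact permutation test) and 17.96 points above mono-IL10 (p = 0.00794 by the same exact test).

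UMI counts were then summed per mouse over its NK cells and tested gene by gene. Of 2448 genes tested by edgeR's quasi-likelihood test, 62 (2.53%) had a Benjamini-Hochberg adjusted p under 0.05 for IL10/2-Trikine against PBS, 33 higher (1.35%) and 29 lower (1.18%). In 47 of the 62 the mice of the 2 groups did not overlap, against 4.62% of all genes tested. Among the genes that rose, the highest log2 values were those of Ly6a, the granzymes Gzma and Gzmb and perforin (Prf1). Genes that fell included the chemokine Xcl1, the stem cell factor receptor Kit and the transcription factor Tcf7. For IL10/2-Trikine against mono-IL10, 20 genes passed (0.817%), 7 higher (0.286%) and 13 lower (0.531%), and for mono-IL10 against PBS 6 passed (0.245%), 5 higher (0.204%) and 1 lower (0.0408%). The median log2 fold change of all genes tested was -0.02, 0.00 and -0.01 in the 3 comparisons. Against PBS the count fell to 32 without IL10/2-Trikine mouse 1, 33 without mouse 5, 40 without mouse 2, and 34, 39 and 40 without PBS mice 3, 2 and 4. Against mono-IL10 it fell to 8 without mono-IL10 mouse 1, mono-IL10 mouse 2 or IL10/2-Trikine mouse 2, and to 11, 9 and 10 without IL10/2-Trikine mice 3, 4 and 5. For mono-IL10 against PBS it was 2 without mono-IL10 mouse 1, 12 without mono-IL10 mouse 4 and 10 without PBS mouse 4. With this few cells per mouse, fewer cells expressing a gene and less RNA per cell cannot be told apart in the sums.

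**Figure D1:**
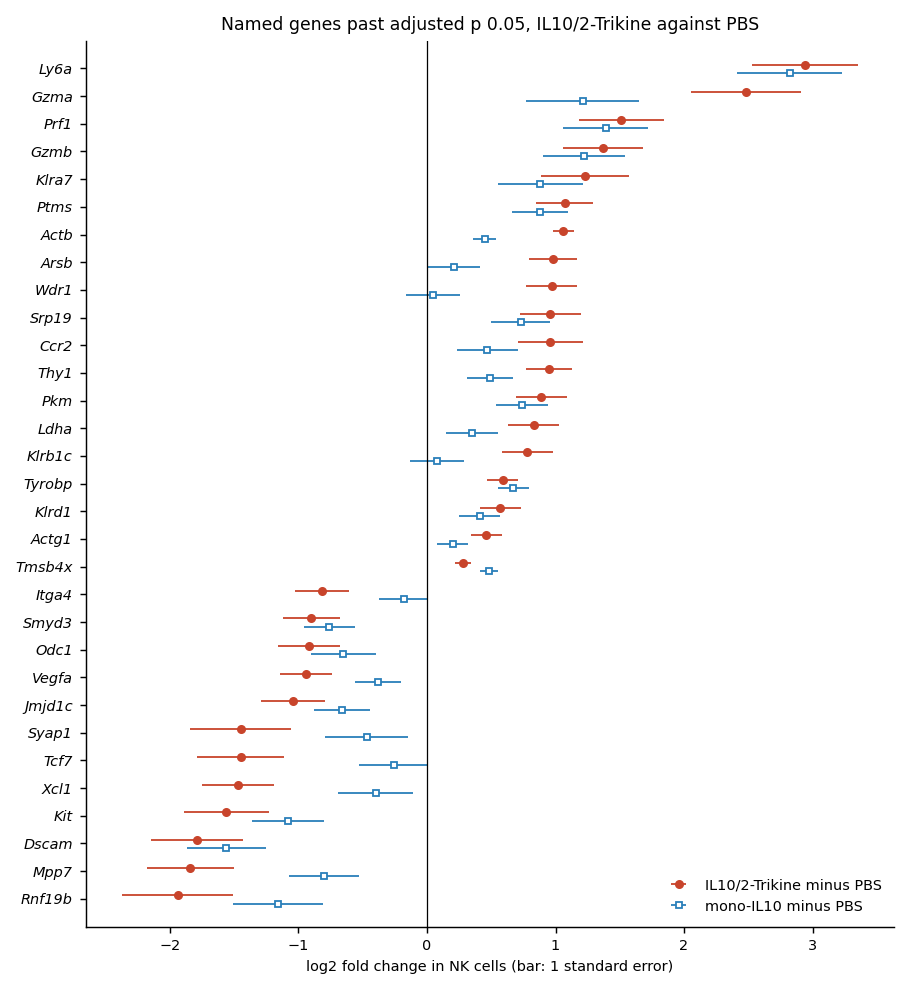
Log2 fold changes in NK cells (horizontal axis, with 1 standard error as bars) for the named genes past the threshold in IL10/2-Trikine against PBS; filled points give that comparison and open squares mono-IL10 against PBS for the same genes. Ly6a lies near 2.94 and 2.82 in the 2 comparisons, whereas Xcl1 lies at -1.47 and -0.40; both comparisons use the same PBS mice.

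Cytotoxic granule genes did not move as one block. Gzma, a granzyme that cleaves after basic residues, was at 112.5, 119.7, 694, 1951 and 1009 CPM (UMIs per mouse scaled to a common TMM-adjusted total) in the 5 PBS mice, at 1546, 2189, 1991 and 1739 CPM in the 4 mono-IL10 mice and at 2741, 3561, 8313, 3927 and 4057 CPM in the 5 IL10/2-Trikine mice. All IL10/2-Trikine mice were above all mice of the other groups. The PBS levels of Gzma rest on 4, 14, 43, 242 and 45 UMIs. On the log2 scale the difference from PBS was 2.48 ± 0.43 (SE; edgeR quasi-likelihood adjusted p = 0.00336). Against mono-IL10 it was 1.27 ± 0.43 and did not pass (adjusted p = 0.153), and for mono-IL10 against PBS it was 1.21 ± 0.44 (adjusted p = 0.353).

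Gzmb, the granzyme that activates caspases, and Prf1 were also higher than in PBS. Gzmb stood at 928, 649.5, 274, 1782 and 426 CPM in PBS, at 2346, 904, 1821 and 2696 CPM in mono-IL10 and at 1863, 2226, 2067, 2443 and 2168 CPM in IL10/2-Trikine. The lowest IL10/2-Trikine mouse was just above the highest PBS mouse, and the mono-IL10 mice spanned both. Against PBS the log2 difference was 1.37 ± 0.31 (adjusted p = 0.0174), and it lost the call without PBS mouse 2, the largest adjusted p over single left-out mice being 0.0626. Prf1 stood at 112.5, 333, 145, 653 and 112 CPM in PBS, at 925, 904, 455 and 1013 CPM in mono-IL10 and at 705, 817, 1342, 900.0 and 769 CPM in IL10/2-Trikine. The PBS levels of Prf1 rest on 4, 39, 9, 81 and 5 UMIs. PBS mouse 4 was above mono-IL10 mouse 4 but below all other treated mice. Against PBS the log2 difference was 1.51 ± 0.33 for IL10/2-Trikine (adjusted p = 0.0106) and 1.39 ± 0.33 for mono-IL10, which did not pass (adjusted p = 0.0717). PBS mouse 4 was the highest PBS mouse for all 3 of these genes, and without it the log2 difference from PBS became 3.27 for Gzma, 2.13 for Prf1 and 1.95 for Gzmb. Single cells held much of that mouse's signal. A cell of 25365 UMIs held 140 of its 221 Gzmb UMIs and 33 of its 81 Prf1 UMIs, and another, of 7063 UMIs, held 127 of its 242 Gzma UMIs. In mono-IL10 mouse 5 a cell of 18388 UMIs held 85 of 184 Prf1 UMIs. Whether these cells are doublets was not tested. With every cell thinned to 1500 UMIs before summing, the log2 difference from PBS was 2.37 for Gzma, 1.99 for Gzmb and 1.54 for Prf1, and all 3 passed (adjusted p = 8.98e-05, 6.55e-06 and 0.00106).

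Gzmc, a further granzyme of the same chromosomal cluster as Gzmb, did not follow them. It stood at 3966, 12650, 4887, 11210 and 5963 CPM in PBS, against 12510, 4871, 6638 and 7071 CPM in mono-IL10 and 4830, 7471, 2331, 5809 and 4826 CPM in IL10/2-Trikine. The 3 groups overlapped widely. The log2 difference from PBS was -0.62 ± 0.27 (adjusted p = 0.268). In PBS the cell of 25365 UMIs in mouse 4 held 873 of the library's 4266 Gzmc UMIs. The top cells of the mono-IL10 and IL10/2-Trikine libraries held 673 of 10474 and 108 of 4775. Gzmd, Gzme, Gzmf and Gzmg are close relatives whose reads may not be told apart, so their values are uncertain. Gzmd was found in 11.8% to 13.4% and Gzme in 8.82% to 11.5% of the NK cells of a library, Gzmf in 3.53% to 5.11% and Gzmg in 1.08% to 3.53%. Much of their signal came from single cells. In PBS 1 cell of mouse 4 held 534 of the 565 Gzmf UMIs and 1104 of the 1130 Gzmg UMIs, and in mono-IL10 1 cell of mouse 5 held 2052 of 2214 and 1479 of 1506. These cells had 25365 and 18388 UMIs in all, far above the medians of their libraries, and 0 Gzma UMIs, and whether they are doublets was not tested. With IL10/2-Trikine the top cell, again in mouse 4, held 120 of 226 Gzmf UMIs. The same 2 mice held the top cells for Gzmd, with 869 of 1110 UMIs in PBS and 1016 of 1545 in mono-IL10, and for Gzme, with 345 of 464 and 567 of 796. With IL10/2-Trikine the UMIs of these genes were spread more widely, the top 5 cells holding 45.5% for Gzmd and 53.3% for Gzme. None of the 4 genes passed the test, including Gzmg with a log2 difference of -4.50 ± 1.61 from PBS (adjusted p = 0.149).

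Of the 19 tested members of the granule and killing list, 3 rose against PBS (Gzma, Gzmb and Prf1) and 0 fell. Of all genes tested 1.35% rose and 1.18% fell. The list's median log2 change was 0.02 against -0.02 for all genes tested. Nkg7, a granule membrane protein, was at 0.40 ± 0.14 (adjusted p = 0.130), the death ligand Fasl at -0.11 ± 0.37 (adjusted p = 0.955) and the lysosomal protease Ctsw at -0.09 ± 0.17 (adjusted p = 0.887). Against mono-IL10 the list had 1 member past the threshold, the granule proteoglycan core Srgn, which fell by 0.58 on the log2 scale (adjusted p = 0.0181) and did not pass without mono-IL10 mouse 1 or IL10/2-Trikine mouse 2 or 4 (largest adjusted p 0.0852). Of all genes tested 0.531% fell in that comparison.

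**Figure D2:**
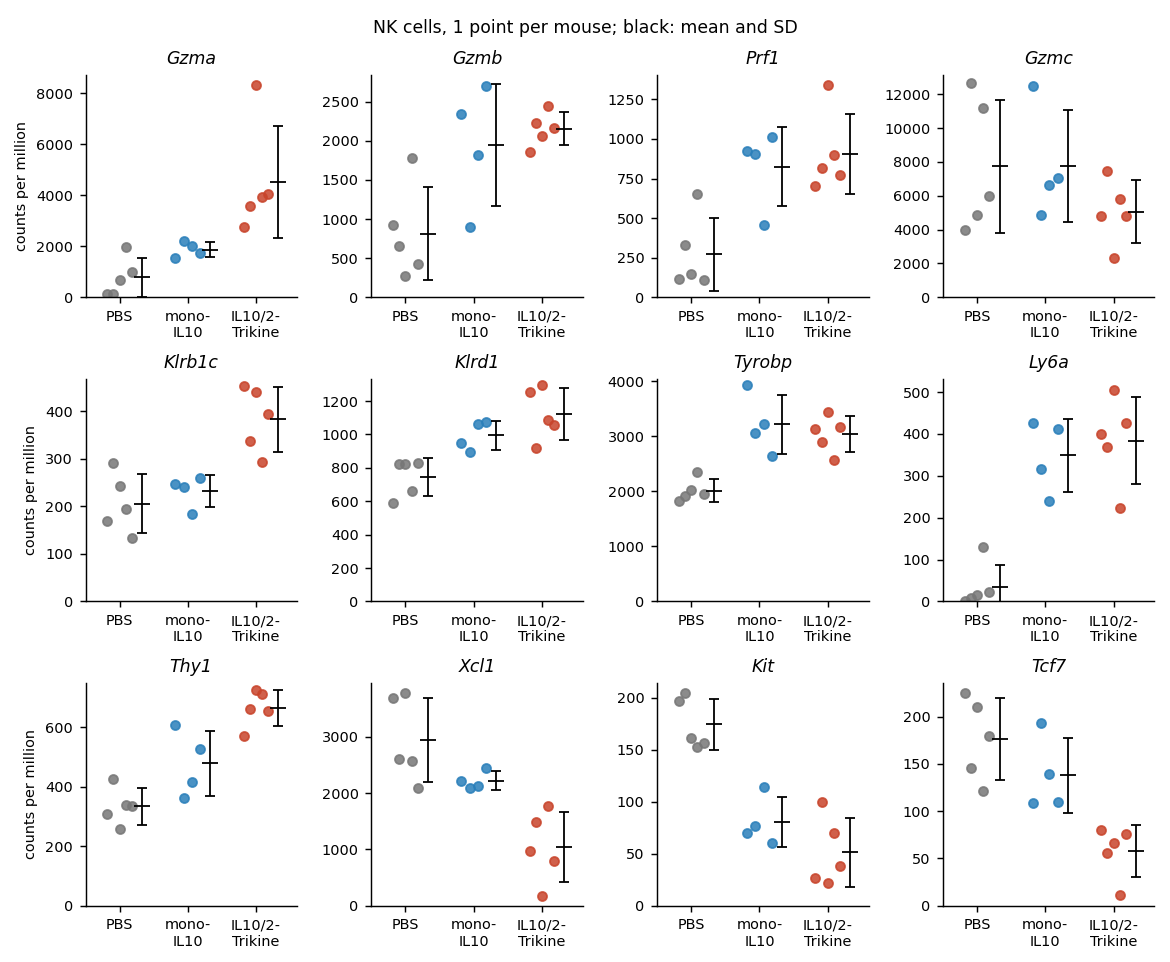
Levels in NK cells in CPM (vertical axis) for 12 genes, 1 point per mouse, with the group mean and SD in black. Gzma runs from 112.5 to 1951 in PBS and from 2741 to 8313 in IL10/2-Trikine, Gzmc overlaps in all groups, and Xcl1, Kit and Tcf7 are lowest with IL10/2-Trikine.

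Because sums over few cells can rest on a handful of them, the share of cells with a UMI was also taken after every cell was thinned to 1500 UMIs. Gzma was found in 23.7% ± 10.8 (SD over mice, n = 5) of the NK cells in PBS, 51.1% ± 7.61 (n = 4) in mono-IL10 and 66.4% ± 16.3 (n = 5) in IL10/2-Trikine. Over all cells of a library, with or without a mouse, the thinned shares were 37.65%, 48.2% and 60.75%. The PBS share over all cells was thus above that of every PBS mouse, the highest being 35.5%. Without thinning, and over all cells of a library, the shares were 42.4%, 53.4% and 65.9%. The activated CD4 and regulatory T cells of the same libraries, cells in which the gene is normally low, gave 0%, 3.57% and 7.69% after thinning. Prf1 was found in 25.8%, 47.4% and 65.4% of NK cells, against 2.80%, 9.29% and 11.5% of those T cells. Gzmb was found in 37.5%, 60.3% and 76.8%, but those T cells also reached 36.5%, 47.9% and 55.8%, and the PBS mice lay on both sides of their library's 36.5%, from 23.1% to 50%. Gzmc was found in 51.4% ± 19.4, 53.4% ± 12.9 and 66.9% ± 17.1, with 11.7, 15.8 and 9.47 UMIs per positive cell.

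Cells with Gzmc less often held Gzma in each library. After thinning, Gzma was found in 23.3% of the PBS cells with Gzmc and in 52.4% of those without it. The same shares were 35.7% and 61.3% in mono-IL10, and 54.3% and 74.6% in IL10/2-Trikine. Itga1 went the other way, with 25.6% against 11.9% in PBS, 24.0% against 7.26% in mono-IL10 and 20.9% against 15.3% in IL10/2-Trikine. So did Gzmb, found more often in cells with Gzmc, with 44.2% against 27.4%, 77.5% against 45.2% and 78.7% against 65.25%. Klra7 (Ly49G) followed Gzma, with 11.6% against 19.1%, 12.4% against 25% and 18.1% against 37.3%. The cells with Gzmc had more UMIs before thinning (medians 3852 against 2598, 5643 against 3793 and 2669 against 2332), and these shares are a description over cells, with no test.

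**Figure D3:**
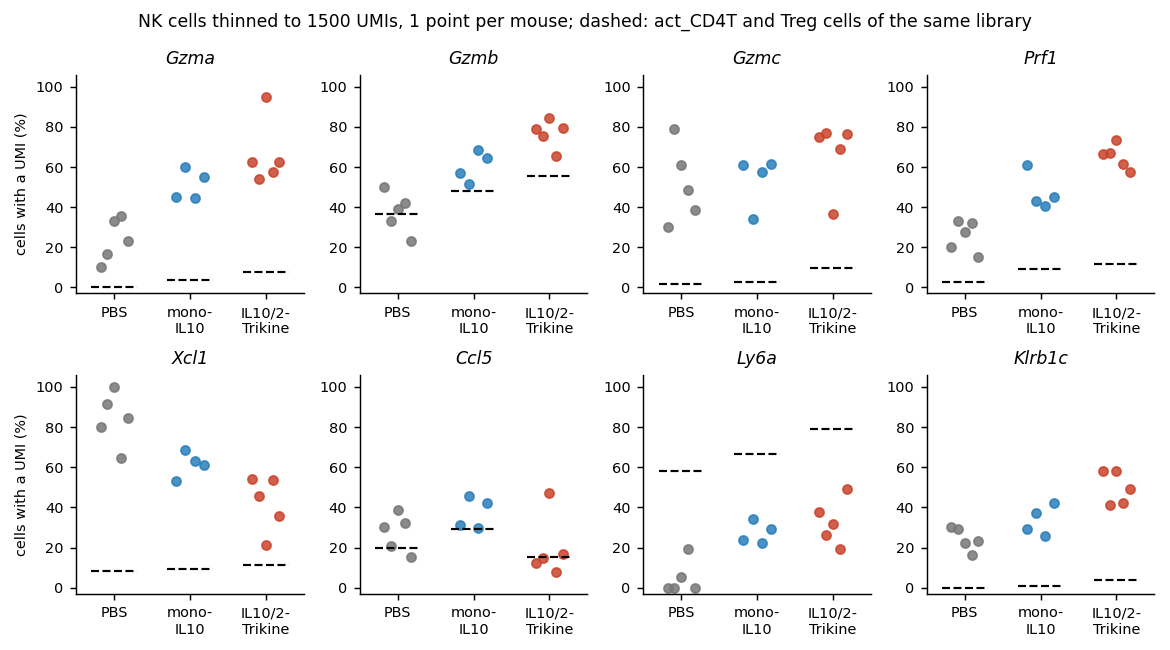
Share of NK cells with at least 1 UMI after thinning to 1500 UMIs (vertical axis, percent), 1 point per mouse, with the activated CD4 and regulatory T cells of the same library as a dashed line. Gzma, Prf1 and Klrb1c are higher and Xcl1 is lower with IL10/2-Trikine, while Gzmb in PBS lies around the T cell line of 36.5% and Ly6a lies below its line in all groups.

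The stretches just upstream of the granule genes and of Xcl1 are shown because these members moved apart from each other: Gzma, Gzmb and Prf1 rose against PBS, Xcl1 fell and Gzmc did not pass. Each is the 250 bases before the start that the RefSeq table gives in GRCm38.p6, an older build than the GRCm39 used for the counts, at chr13:113100982-113101231 (Gzma, minus strand), chr14:56262335-56262584 (Gzmb, minus), chr10:61297586-61297835 (Prf1, plus), chr14:56234658-56234907 (Gzmc, minus) and chr1:164935523-164935772 (Xcl1, minus). The nearest GENCODE transcript start on that build is the same base for Gzma and lies 1, 3 and 5 bases away for Gzmc, Prf1 and Xcl1, but 74 bases further into the gene for Gzmb, whose window therefore depends on the annotation. Capitals mark the Runx letters TGTGGT on either strand and, in Gzmb, also the AP-1 letters TGACTCA read on the other strand.
Gzma: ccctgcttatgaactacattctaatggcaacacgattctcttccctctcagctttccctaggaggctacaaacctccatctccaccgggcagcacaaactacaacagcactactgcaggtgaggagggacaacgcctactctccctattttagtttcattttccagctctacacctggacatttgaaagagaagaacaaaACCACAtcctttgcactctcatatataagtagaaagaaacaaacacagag
Gzmb: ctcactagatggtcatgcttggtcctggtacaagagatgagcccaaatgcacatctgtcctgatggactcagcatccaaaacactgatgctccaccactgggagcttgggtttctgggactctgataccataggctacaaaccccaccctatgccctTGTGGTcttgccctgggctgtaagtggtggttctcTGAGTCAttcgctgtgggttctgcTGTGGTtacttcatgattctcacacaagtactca
Prf1: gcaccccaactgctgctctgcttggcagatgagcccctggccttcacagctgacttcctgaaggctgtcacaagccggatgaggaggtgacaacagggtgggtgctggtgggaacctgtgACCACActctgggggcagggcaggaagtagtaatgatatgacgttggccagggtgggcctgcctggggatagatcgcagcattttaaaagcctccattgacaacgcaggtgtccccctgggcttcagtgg
Gzmc: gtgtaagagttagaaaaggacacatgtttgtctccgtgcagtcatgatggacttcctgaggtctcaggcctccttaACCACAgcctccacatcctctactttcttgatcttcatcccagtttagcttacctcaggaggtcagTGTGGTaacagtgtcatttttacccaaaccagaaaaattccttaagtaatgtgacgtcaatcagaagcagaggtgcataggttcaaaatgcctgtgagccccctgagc
Xcl1: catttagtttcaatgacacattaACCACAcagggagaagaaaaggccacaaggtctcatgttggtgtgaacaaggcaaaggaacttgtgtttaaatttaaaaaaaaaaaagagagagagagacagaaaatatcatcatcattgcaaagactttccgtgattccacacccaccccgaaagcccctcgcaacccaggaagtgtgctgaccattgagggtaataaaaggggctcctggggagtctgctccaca
The Runx letters are in all 5 windows, with 2 copies in Gzmb and in Gzmc. They were found in 7 of the 25 genes that rose against PBS and had such a sequence (28.0%), in 3 of 21 that fell (14.3%), in 10.7% of the genes tested and in 14.2% of all 27025 windows. The STAT letters TTCNNNGAA are in 2 of the 25 (Ctla2a and Klra7), in 1 of the 21 (Bach2), in 5.81% of the genes tested and in 7.18% of all windows. The AP-1 letters are in 2 of the 25 and 0 of the 21, against 4.43% of all windows. The motifs were chosen after values had been seen, and a match is a run of letters and no measured binding site. The Runx letters stand in Gzmc and Xcl1 as well as in the granule genes that rose.

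Ly6a, a surface protein (Sca-1) used as a marker of activated lymphocytes and induced by cytokines, had the highest log2 value among the genes that passed. PBS mice held 0, 1, 1, 16 and 1 Ly6a UMIs in their NK cells, equal to 0, 8.55, 16.1, 129 and 22.4 CPM. The levels were 426, 317, 239.8 and 413 CPM in mono-IL10 and 399, 368, 506, 222 and 426 CPM in IL10/2-Trikine. Every treated mouse was above every PBS mouse, and the treated groups overlapped. Relative to PBS the log2 difference was 2.94 ± 0.41 for IL10/2-Trikine (adjusted p = 0.000204) and 2.82 ± 0.41 for mono-IL10 (adjusted p = 0.000292). Without PBS mouse 4 these became 4.92 and 4.80. Between the treated groups it was 0.12 ± 0.26 (adjusted p = 0.912). Ly6a belongs to a family of similar genes, so its reads may not all be told apart from those of relatives. It was the only 1 of the 11 tested Ly6 and Gimap genes to pass for IL10/2-Trikine against PBS, beside 2.53% of all genes tested, and the list's median was -0.01.

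Among NK receptors a few rose against PBS. Tyrobp, the adaptor that couples several activating receptors to signaling, was at 1828, 1906, 2016, 2354 and 1950 CPM in PBS, at 3937, 3063, 3225 and 2636 CPM in mono-IL10 and at 3127, 2888, 3431, 2560 and 3167 CPM in IL10/2-Trikine. No PBS mouse overlapped with a treated one. The log2 differences from PBS were 0.59 ± 0.12 for IL10/2-Trikine (adjusted p = 0.00597) and 0.67 ± 0.12 for mono-IL10 (adjusted p = 0.00619, and 0.0552 without mono-IL10 mouse 1). Fcer1g, the other adaptor, was at 2539 CPM with IL10/2-Trikine and 2544 CPM with PBS (log2 -0.01 ± 0.10).

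Klrb1c, the activating receptor NK1.1, was at 169, 291, 242, 193.5 and 134.5 CPM in PBS, at 246.5, 241, 184 and 259 CPM in mono-IL10 and at 452, 337, 439.9, 292 and 394 CPM in IL10/2-Trikine. The lowest IL10/2-Trikine mouse was barely above the highest PBS mouse. The log2 difference from PBS was 0.78, and the call was lost without any 1 of 7 mice (PBS mice 1, 3, 4 and 5 and IL10/2-Trikine mice 1, 3 and 5), with a largest adjusted p of 0.105. In the NK cells without a mouse, Klrb1c stood at 359 CPM with IL10/2-Trikine and 342 CPM with PBS, a log2 ratio of 0.07.

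Klrd1 (CD94, the partner chain of the NKG2 receptors) averaged 1122 ± 154 CPM (SD, n = 5) with IL10/2-Trikine and 745 ± 111 CPM (SD, n = 5) with PBS, a log2 difference of 0.57 ± 0.16 (adjusted p = 0.0488). The call was lost without any of PBS mice 1 to 4 or IL10/2-Trikine mice 1, 3, 4 and 5, with a largest adjusted p of 0.123. Klra7 averaged 292.5 ± 166 CPM against 120.0 ± 33.3 CPM, and its log2 difference of 1.23 ± 0.34 (adjusted p = 0.0475) was lost without any PBS mouse or IL10/2-Trikine mouse 1, 3 or 5, with a largest adjusted p of 0.134. Its groups overlapped. All 6 tested Ly49 genes had a value above 0 against PBS, 1 of them past the threshold, with a median of 0.78. Ly49 genes are similar copies whose reads may not be told apart, so single members are uncertain. Ncr1 (0.40, adjusted p = 0.414) and Klre1 (0.40, adjusted p = 0.211) did not pass. In all, 2 of 12 activating receptors and adaptors and 1 of 5 NKG2 and CD94 genes rose, beside 1.35% of all genes tested. Of these lists 0 genes fell, and none of either list passed against mono-IL10.

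Thy1, a surface glycoprotein also found on activated NK cells, was at 309, 427, 258, 339 and 336 CPM in PBS and at 572, 661, 726, 713 and 655 CPM in IL10/2-Trikine, with no overlap. The log2 difference was 0.95 ± 0.18 (adjusted p = 0.00593). The 4 mono-IL10 mice, at 364 to 608 CPM, lay between the groups and overlapped with both. In the non-cycling T cells of the same libraries Thy1 changed by 0.84 for IL10/2-Trikine against PBS.

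Among the transcripts that fell with IL10/2-Trikine were a chemokine, a growth factor receptor and a transcription factor. Xcl1, a chemokine that attracts cross-presenting dendritic cells, was at 3685, 2607, 3774, 2564 and 2085 CPM in PBS, at 2218, 2089, 2120 and 2449 CPM in mono-IL10 and at 971, 1484, 176, 1765 and 788.5 CPM in IL10/2-Trikine. All IL10/2-Trikine mice were below all other mice. The log2 difference was -1.47 ± 0.28 from PBS (adjusted p = 0.00597) and -1.07 ± 0.29 from mono-IL10, the latter not past the threshold (adjusted p = 0.0747). After thinning, Xcl1 was found in 84.2% ± 13.3, 61.4% ± 6.47 and 42.1% ± 14.0 of the NK cells of PBS, mono-IL10 and IL10/2-Trikine, against 8.41%, 9.29% and 11.5% of the activated CD4 and regulatory T cells. Ccl5, another chemokine of cytotoxic lymphocytes, differed by 0.40 ± 0.37 from PBS (adjusted p = 0.670) and had the other sign in cells without a mouse, at 692 against 1639 CPM.

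Kit, a growth factor receptor of immature NK and other innate lymphoid cells, was at 197, 205, 161, 153 and 157 CPM in PBS, at 70.4, 76.3, 115 and 60.5 CPM in mono-IL10 and at 26.6, 99.8, 21.99, 70.1 and 38.2 CPM in IL10/2-Trikine. Every treated mouse lay below every PBS mouse. Against PBS the log2 difference was -1.56 ± 0.33 for IL10/2-Trikine (adjusted p = 0.00943) and -1.08 ± 0.28 for mono-IL10, not past the threshold (adjusted p = 0.105). These levels rest on few UMIs, 7 to 24 in a PBS mouse and 1 to 16 in an IL10/2-Trikine mouse.

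Tcf7, a transcription factor of early NK and memory-like lymphocytes, was at 225, 145, 209.7, 121 and 179 CPM in PBS, at 109, 194, 139 and 110.1 CPM in mono-IL10 and at 79.8, 56.1, 66.0, 11.7 and 76.3 CPM in IL10/2-Trikine. The IL10/2-Trikine mice were below all other mice. The Tcf7 levels rest on few UMIs, 8, 17, 13, 15 and 8 in the PBS mice and 6, 9, 3, 1 and 12 in the IL10/2-Trikine mice. Against PBS the log2 difference was -1.45 ± 0.34 (adjusted p = 0.0213), and without PBS mouse 3 or IL10/2-Trikine mouse 2 it did not pass, with a largest adjusted p of 0.0592. From mono-IL10 it was -1.18 ± 0.31 (adjusted p = 0.0664). Kit and Tcf7 were the 2 of 13 tested NK maturation genes that passed, both lower, beside 1.18% of all genes tested. The list's median was -0.10. Eomes (-0.08, adjusted p = 0.976) and Tbx21 (-0.42, adjusted p = 0.523), the main transcription factors of NK identity and maturation, did not pass. None of the 9 tested genes of type 1 innate lymphoid cells and tissue residency passed, with a median of -0.62 that included Gzmc and with Itga1 at -0.07.

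Of the 9 tested homing receptors and integrins 1 rose and 1 fell, beside 1.35% and 1.18% of all genes tested. Both calls depended on single mice, and the list's median log2 difference from PBS was 0.13. Ccr2, a monocyte and lymphocyte chemokine receptor, rose by a log2 difference of 0.96 (adjusted p = 0.0317), with PBS mouse 1 at 28.1 CPM and the other PBS mice at 234 to 336 CPM. The call was lost without any 1 of 6 mice (PBS mice 3 and 4 and IL10/2-Trikine mice 1 to 4), with a largest adjusted p of 0.0831. The integrin chain Itga4 averaged 166 ± 23.8 CPM with IL10/2-Trikine and 291 ± 48.95 CPM with PBS, and fell by 0.82 on the log2 scale (adjusted p = 0.0356), a call lost without any 1 of 8 mice (all but PBS mouse 5 and IL10/2-Trikine mouse 3, largest adjusted p 0.116). Outside that list, Vegfa, the angiogenic factor, averaged 235 ± 46.4 CPM against 484 ± 129 CPM and fell by 0.94, with no overlap. Rnf19b, a ubiquitin ligase known from NK cytotoxicity, fell by 1.94 on the log2 scale, from 142 ± 59.3 CPM to 30.5 ± 12.6 CPM, and did not pass without PBS mouse 3 (largest adjusted p 0.0566). Its levels rest on 5 to 17 UMIs in a PBS mouse and 1 to 7 in an IL10/2-Trikine mouse. Mpp7 (log2 -1.84) and Dscam (log2 -1.79), a scaffold and an adhesion molecule best known from other tissues, also fell, and Dscam was the 1 gene that fell in mono-IL10 against PBS (log2 -1.56, adjusted p = 0.0141).

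Some structural and metabolic genes rose with IL10/2-Trikine. Actb, the main cytoplasmic actin, was at 3242 to 3609 CPM in PBS with a median of 3483, at 3979 to 5288 CPM in mono-IL10 with a median of 4814 and at 6537 to 7939 CPM in IL10/2-Trikine with a median of 7142. The 3 groups did not overlap. The log2 differences were 1.06 ± 0.08 for IL10/2-Trikine against PBS (adjusted p = 2.9e-09), 0.60 ± 0.09 against mono-IL10 (adjusted p = 0.000538) and 0.45 ± 0.09 for mono-IL10 against PBS (adjusted p = 0.0103, not passing without mono-IL10 mouse 1 or 5, largest adjusted p 0.0656). The second actin Actg1 (0.46) and the actin-binding peptide Tmsb4x (0.28) rose too. Thus 3 of 19 actin cytoskeleton genes rose against PBS, beside 1.35% of all genes tested, and the list's median was 0.27. Actg1 lost its call without any 1 of 6 mice (PBS mice 1 and 3 and IL10/2-Trikine mice 1, 2, 4 and 5, largest adjusted p 0.0773) and Tmsb4x without IL10/2-Trikine mouse 1 (0.0602). Wdr1, a cofactor of actin disassembly that was not on the list, rose by 0.97 against PBS and 0.91 against mono-IL10. In the non-cycling T cells of the same libraries Actb changed by 0.84 and 0.77 in these comparisons, and Wdr1 by 1.19 and 1.06. For Actb the difference between the cell types did not pass (edgeR quasi-likelihood adjusted p = 0.907 and 0.790), nor did it for Wdr1. For mono-IL10 against PBS the T cell value of Actb was 0.07. What part of the Actb rise was particular to NK cells was not tested further.

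In glycolysis 2 of 9 tested genes rose against PBS, beside 1.35% of all genes tested. Pkm, which makes pyruvate, averaged 321 ± 19.3 CPM with IL10/2-Trikine and 160.4 ± 53.8 CPM with PBS (log2 0.89), and Ldha, which makes lactate, 539 ± 156 CPM and 272 ± 74.1 CPM (log2 0.83). Ldha did not pass without PBS mouse 1, 3 or 4 (largest adjusted p 0.0617). All 9 had values above 0, with a median of 0.48, and Gapdh lay just outside the threshold (0.60 ± 0.17, adjusted p = 0.0509). Against mono-IL10 none of the 9 passed.

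The cytokine receptors themselves differed little or were read too thinly to compare. Il2rb, the chain that IL10/2-Trikine was built to engage, was at 1290 to 1457 CPM in PBS, 1194 to 1466 CPM in mono-IL10 and 1237 to 1606 CPM in IL10/2-Trikine. The groups overlapped, with a log2 difference of 0.05 from PBS. None of 6 tested IL-2 and IL-15 receptor pathway genes passed in any comparison, and none of 8 tested feedback and early STAT targets, among them Cish (-0.16, adjusted p = 0.908), Pim1 (-0.26, adjusted p = 0.822) and Socs3 (-0.20, adjusted p = 0.926). Tumors were collected days after the last dose, and no earlier time was sampled, so a brief response soon after dosing could not be seen. Il10ra and Il10rb were below the filter. Over all NK cells of a library Il10ra had 14, 18 and 8 UMIs in PBS, mono-IL10 and IL10/2-Trikine, and Il10rb had 15, 45 and 32.

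Of 10 genes that the study scored as STAT5 targets, 8 rose against PBS (Gzma, Gzmb, Prf1, Klrd1, Klrb1c, Klra7, Ly6a and Thy1), beside 1.35% of all genes tested. The median log2 change of the 10 was 1.09. The study chose that list, from earlier literature, and scored it on these samples, so its count is no independent evidence of a direction. Against mono-IL10 0 of the 10 passed by edgeR's quasi-likelihood test, with a median of 0.16, and for mono-IL10 against PBS 1 did, with a median of 0.82. Of all genes tested 0.817% and 0.245% passed in these 2 comparisons.

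**Figure D4:**
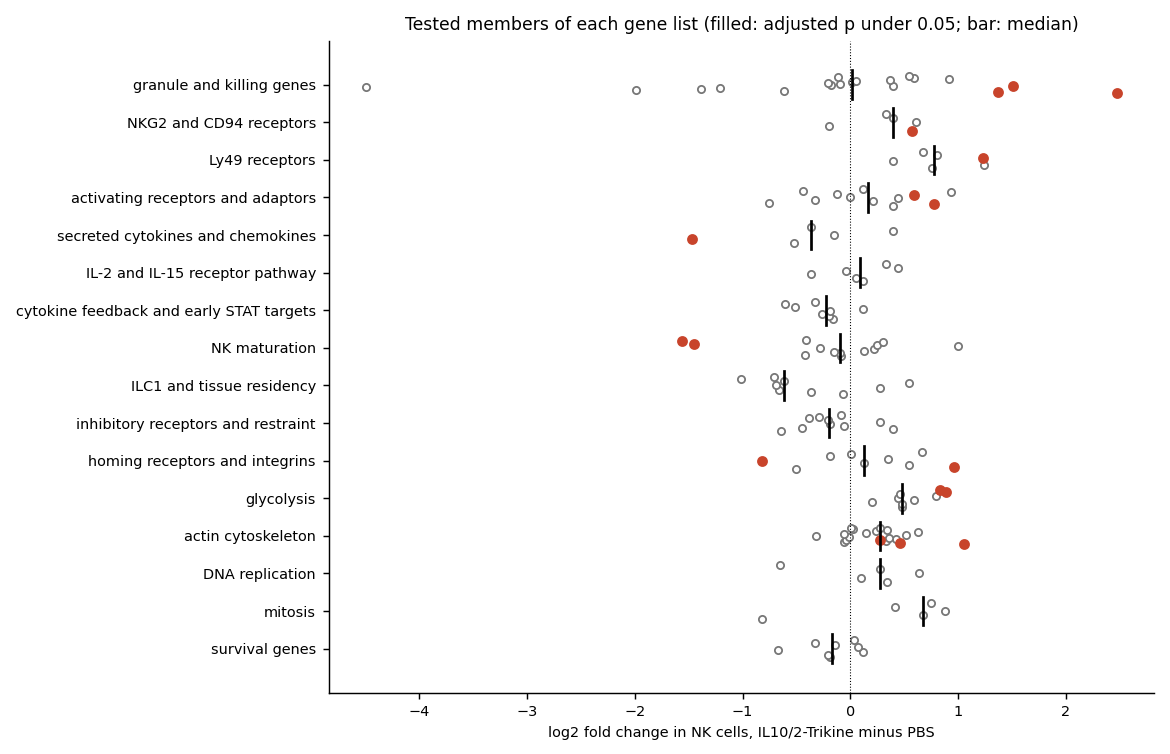
Log2 fold change in NK cells, IL10/2-Trikine minus PBS (horizontal axis), of every tested member of 16 gene lists; filled points passed an adjusted p of 0.05 and bars give the median. The granule list has 3 filled points to the right and a median of 0.02, and its member at -4.50 is Gzmg.

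Against mono-IL10, the 7 genes that rose included 2 used by dividing cells, Tuba1b and Mcm6. Tuba1b, an alpha tubulin, was at 76.8, 41.1, 59.1 and 104.6 CPM in mono-IL10 and at 279, 143, 154, 152 and 184 CPM in IL10/2-Trikine, with no overlap (log2 1.34 ± 0.26, adjusted p = 0.00879). Mcm6, of the replicative helicase, averaged 64.5 ± 24.5 CPM and 140.1 ± 14.6 CPM (log2 1.16 ± 0.27, adjusted p = 0.0424), and lost its call without any mouse but mono-IL10 mouse 5 (largest adjusted p 0.126). PBS mice were at 80.6 to 137 CPM for Tuba1b, overlapping with mono-IL10, and at 88.7 to 169 CPM for Mcm6, above all mono-IL10 mice, and neither gene passed against PBS. Of 5 tested genes each, 1 rose in the DNA replication list (median 0.67) and 1 in the mitosis list (median 0.45), beside 0.286% of all genes tested. Usp1, a deubiquitinase of the DNA damage response, was higher by 1.22 on the log2 scale and lost its call without any 1 of the 9 mice (largest adjusted p 0.124).

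The genes that were lower than with mono-IL10 included several abundant transcripts of every cell, namely ubiquitin (Ubb, -0.88), histone H3.3 (H3f3b, -0.82), the nuclear RNA Malat1 (-0.69), ferritin heavy chain (Fth1, -0.56), Tpt1 (-0.52) and beta-2 microglobulin (B2m, -0.42), the light chain of class I molecules. Without any 1 of 6 mice Fth1 did not pass (mono-IL10 mice 1, 2 and 4 and IL10/2-Trikine mice 2, 3 and 4, largest adjusted p 0.0832), nor did B2m without any 1 of 5 (mono-IL10 mice 1 and 2 and IL10/2-Trikine mice 2, 4 and 5, largest adjusted p 0.0852). These 6 were also lower than in PBS. The non-cycling T cells of the same libraries had values of the same sign against mono-IL10 for Ubb (-0.78), H3f3b (-0.69), Malat1 (-0.87), Fth1 (-0.52) and Tpt1 (-0.25), though different clusters made up those T cells in the 2 groups. The calls of the comparisons with PBS and with mono-IL10 had 11 genes in common, of 62 and of 20, and both use the same IL10/2-Trikine mice.

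For mono-IL10 against PBS the 5 genes that rose were Ly6a, Tyrobp, Actb, Tmsb4x (0.48, adjusted p = 0.0002) and AW112010, a transcript that is high in activated lymphocytes (0.57, adjusted p = 0.0141, not passing without PBS mouse 1 or mono-IL10 mouse 1, largest adjusted p 0.0558). Of these, Ly6a, Tyrobp, Actb and Tmsb4x also rose with IL10/2-Trikine against the same PBS mice. AW112010 was at 5059 to 5696 CPM in mono-IL10, 2841 to 4080 CPM in PBS and 3378 to 5190 CPM in IL10/2-Trikine.

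To see whether NK cells responded differently from T cells of the same mice, the difference between the 2 cell types was tested with the mouse as a block, over 12 mice with at least 10 cells of each. For IL10/2-Trikine against PBS 0 of 3272 genes passed (edgeR quasi-likelihood test, 195 at an unadjusted p under 0.05), and for mono-IL10 against PBS 0 passed (201 at an unadjusted p under 0.05). For IL10/2-Trikine against mono-IL10 9 passed (0.275%): Ccl5, Tyrobp, Fcer1g, Ncr1, Ifitm3, Il2ra, Lax1, Myo1e and Gzmc. The T cells compared were not of 1 make-up. In the mice used, the 3 naive T clusters made up 51 of 194 non-cycling T cells with PBS (26.3%), 149 of 320 with mono-IL10 (46.6%) and 2 of 63 with IL10/2-Trikine (3.17%), and the gdT/NKT cluster 28.9%, 15.9% and 38.1%. With the naive clusters left out, an alternative added after seeing the data, 0 of 3059 genes passed for IL10/2-Trikine against mono-IL10 (140 at an unadjusted p under 0.05), and none of the 9 was among those called without them in any comparison. The values that follow are of the whole T cell class unless said otherwise. Ccl5 was at 981 ± 524 CPM (n = 4) in NK cells with mono-IL10 and at 708 ± 231 CPM (n = 3) with IL10/2-Trikine, whereas in T cells it was at 6801 ± 1500 and 927 ± 254 CPM, and the NK change exceeded the T cell change by 2.50 on the log2 scale (adjusted p = 0.00868). After thinning, Ccl5 was found in 81.5% of the mono-IL10 cells in the naive T clusters, a name given by the study. In the activated CD4 and regulatory T cells of that library the share was 29.3%. Over the 3 libraries and unthinned, Nkg7 was detected in 81.9% of the cells of the naive T clusters and 72.6% of all non-cycling T cells. After thinning, Gzmb was found in 20.55% of the naive cluster cells in PBS and 55.2% in mono-IL10. Whether these cells are naive was not tested. Without these clusters the T cell level of Ccl5 was 2920 ± 2053 CPM with mono-IL10 and 789.5 ± 92.2 CPM with IL10/2-Trikine (difference from the NK change 1.27, adjusted p = 0.940). Gzmc was at 7576 ± 3192 and 5707 ± 1611 CPM in NK cells and at 199 ± 169 and 680 ± 441 CPM in T cells. The difference of -2.36 (adjusted p = 0.0334) became -1.86 without the naive clusters (adjusted p = 0.672). Tyrobp, Fcer1g and Ncr1, all markers of NK cells, were at higher mean levels in the T cells of IL10/2-Trikine mice, for Tyrobp 842 against 271 CPM. Whether NK transcripts in T cell droplets had a part was not tested. Without mono-IL10 mouse 4 or IL10/2-Trikine mouse 2, 0 genes passed, and 4 did without IL10/2-Trikine mouse 1 or without mouse 5.

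For Gzma, Gzmb and Prf1 the difference between the cell types did not pass. Against PBS, Gzma changed by 2.48 in NK cells and 4.25 in T cells (difference -1.83 ± 0.64, adjusted p = 0.506), Prf1 by 1.51 and 2.55 (difference -1.23 ± 0.65, adjusted p = 0.805) and Gzmb by 1.37 and 1.67 (difference -0.22 ± 0.35, adjusted p = 0.963). Ly6a changed by 2.82 in NK cells and 0.61 in T cells for mono-IL10 against PBS, a difference of 2.20 ± 0.44 that did not pass (adjusted p = 0.0525). These T cell changes also pool clusters whose proportions differed between the groups. Without the naive clusters the T cell change from PBS with IL10/2-Trikine was 4.72 for Gzma, 2.28 for Prf1 and 1.55 for Gzmb, and none of the 3 differences from the NK change passed (adjusted p = 0.430, 0.971 and 1.0), nor did that of Ly6a for mono-IL10 against PBS (2.07, adjusted p = 0.192).

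The 330 NK cells without a mouse had entered none of these tests and gave a second look at the same libraries. Of the 62 genes called against PBS, 60 had the same sign in them, with Syap1 and Jmjd1c the exceptions, against 67.3% of all genes tested. All 20 genes called against mono-IL10 and all 6 for mono-IL10 against PBS kept their sign, against 67.6% and 61.1%. Gzma stood at 1155 CPM in these PBS cells and 3683 CPM in these IL10/2-Trikine cells (log2 ratio 1.67). Ly6a stood at 12.5 and 290.5 CPM, Prf1 at 229 and 764.5 CPM, Xcl1 at 2272 and 1140 CPM and Kit at 117 and 40.3 CPM. For 18 of the 62 genes the log2 value was smaller than in the tested cells by over 1.5 times or had the other sign, among them Mpp7 (-0.58 against -1.84), Rnf19b (-0.73 against -1.94), Tcf7 (-0.88 against -1.45), Klra7 (0.56 against 1.23), Ldha (0.31 against 0.83) and Klrd1 (0.18 against 0.57). With mono-IL10 their Gzma was at 3150 CPM, a log2 ratio of 0.23 to IL10/2-Trikine. They share the library with the tested cells, so they are no replicate of the treatment.

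Several genes of interest were too low to be tested and are given as UMIs over all NK cells of a library, with exact Poisson 95% intervals that cover counting error only. Ifng, the main NK cytokine, had 4 UMIs in PBS (6.43 CPM, interval 1.75 to 16.5), 59 in mono-IL10 (43.3 CPM, 32.9 to 55.8) and 54 in IL10/2-Trikine (53.2 CPM, 39.95 to 69.4). The checkpoint Lag3 was at 17.7, 73.3 and 66.0 CPM, with intervals of 8.83 to 31.6, 59.7 to 89.2 and 51.1 to 83.8. Klf2, a factor of lymphocyte recirculation, was at 57.9, 52.1 and 10.8 CPM, with intervals of 40.5 to 80.1, 40.7 to 65.7 and 5.41 to 19.4. Cxcr6, a receptor for tissue retention, was at 27.3, 69.6 and 23.6 CPM. The mature NK markers Cx3cr1 (8, 0 and 1 UMIs) and S1pr5 (0, 2 and 0) were near absent. With 1 library per group, these intervals do not compare the treatments.

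Genes of other cells were followed in the same sums. The T cell list summed to 122 to 372 CPM in PBS, 158 to 309 CPM in mono-IL10 and 142 to 252.5 CPM in IL10/2-Trikine, with 4, 2 and 1 of its 10 genes at 0 UMIs. The macrophage and monocyte list, which holds Ccr2, summed to 177 to 1077, 531 to 664 and 675 to 981 CPM, with Adgre1 at 0 UMIs in each group. The dendritic cell list summed to 118 to 461.5 CPM in PBS (median 225), 94.8 to 187 CPM in mono-IL10 (median 135) and 68.4 to 142 CPM in IL10/2-Trikine (median 103), and the 3 ranges overlapped. Its defining markers Clec9a, Xcr1, Flt3 and Cd209a were at 0 UMIs in all 3 groups, and its 1 tested gene, the class II chaperone Cd74, had a log2 difference of -1.04 ± 0.44 from PBS with IL10/2-Trikine (adjusted p = 0.239). The medians of the B cell list were 147, 114.5 and 107 CPM, with Cd79a and Ms4a1 at 0 UMIs throughout. Those of the neutrophil list were 8.69, 6.04 and 0 CPM, those of tumor epithelium 104, 81.6 and 101 CPM, and those of fibroblasts 38.9, 10.5 and 35.6 CPM. In NK cells with no UMI of T cell genes, 21 of 1414 genes tested passed against PBS, 16 of them among the 62. Gzma, Ly6a, Xcl1, Actb, Thy1 and Tyrobp kept their calls, while Prf1 (1.36, adjusted p = 0.134), Gzmb (1.07, 0.174), Kit (-1.26, 0.169) and Tcf7 (-1.33, 0.212) did not. The part of other cells in the remaining results was not tested.

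Transcript length moved with the differences from PBS. For IL10/2-Trikine against PBS the median log2 change in NK cells was 0.19 for the 100 genes with a median transcript of up to 500 bases and -0.08 for the 139 genes over 4000 bases, and in the T cells 0.18 and -0.11. Spearman's rho across genes, which are not replicates, was -0.14 in both cell types. For mono-IL10 against PBS it was -0.19 in NK cells and -0.17 in T cells, and for IL10/2-Trikine against mono-IL10 it was 0.01 and -0.04. Within the 76 ribosomal protein genes rho in NK cells was -0.45 for IL10/2-Trikine against PBS, -0.46 against mono-IL10 and -0.03 for mono-IL10 against PBS. Genes that rose had a median length of 708 bases and those that fell 1229, against 1110 for all genes tested. Of 76 ribosomal protein genes, a list set up after values were seen, 5 rose against PBS (Rpl41, Rpl39, Rpl38, Rps26 and Rpl37, by 0.31 to 0.53) and 1 fell (Rpl19), with a median of -0.03. Of all genes tested 1.35% rose and 1.18% fell against PBS. Against mono-IL10 0 of the 76 rose and 4 fell (Rpl10, Rps4x, Rpl21 and Rpl19), with a median of -0.09, beside 0.286% and 0.531% of all genes tested. With a length trend removed from each mouse, 64 genes passed for IL10/2-Trikine against PBS, 26 higher and 38 lower, 53 of them among the 62. The make-up of the T cells differed between the groups, as given above. The part of length in the other differences was not tested.

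**Figure D5:**
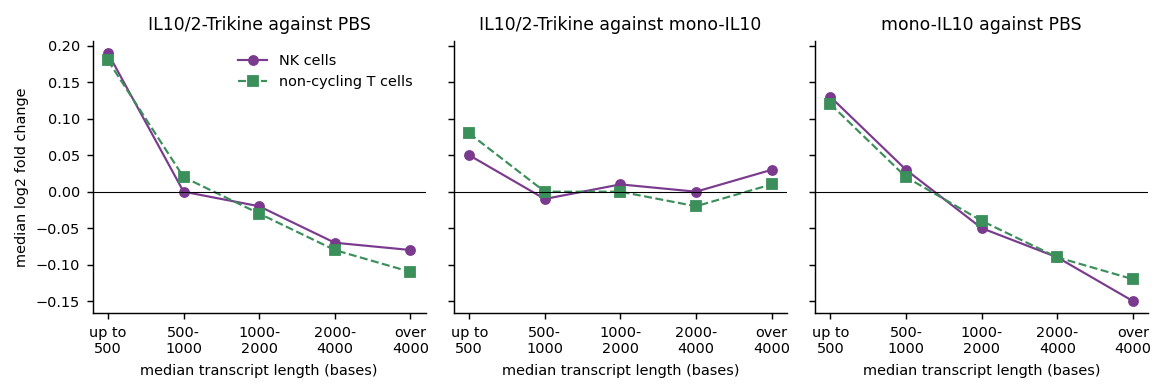
Median log2 fold change of genes grouped by transcript length in bases (horizontal axis), for NK cells (circles) and non-cycling T cells (squares) in the 3 comparisons. Against PBS both cell types slope the same way, from 0.19 and 0.18 for the shortest genes to -0.08 and -0.11 for the longest, while for IL10/2-Trikine against mono-IL10 the NK medians of these bins are 0.05 and 0.03.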

How the data were processed

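Droplet-based 5' single-cell RNA sequencing was used on pooled, hashtagged mice, 1 library per treatment. The deposited matrices hold raw UMI counts per gene and barcode, made by the authors with Cell Ranger 9.0.1 on GRCm39. The deposited cell table, made by the authors with Seurat 5.1.0 from cells with at least 1000 genes and at most 10% mitochondrial reads, gives each cell's counts, mitochondrial percent, hashtag call and cluster. It holds hashtag singlets and negatives, and no further doublet caller was run. Another 7858 cells, from a treatment not analysed here, were left out. All 2084 annotated barcodes were found. The annotated cluster named NK defined the cells.

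Counts were summed per mouse (at least 10 NK cells), scaled by TMM, filtered by filterByExpr and tested in 1 model of all 3 groups with edgeR 4.0.16 (quasi-likelihood, R 4.3.3), with Benjamini-Hochberg adjustment over all genes tested and a threshold of 0.05. DESeq2 1.42.0 was an alternative. CPM are UMI counts over TMM-scaled totals. The SE of a log2 change is its size over the root of its F. Shares were compared by exact permutation. Where the difference between NK and T cells was tested, the mouse was the block. Members and gene lists were chosen with earlier results of these data known. Named genes were, per comparison, the 10 highest and 10 lowest log2 values among called genes whose groups did not overlap, every list member that passed, and a fixed set of NK genes; other names (Gzmd to Gzmg, Fasl, Ctsw, Nkg7, Fcer1g, Klf2, Cx3cr1, S1pr5, Gapdh, ribosomal genes) were added after values were seen. A gene that the rule names is not reported here. P-values measure the spread between mice within single libraries. Python 3.11.15, scipy 1.17.1 and pandas 2.3.3 were used.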

Additional observations from a re-analysis of the deposited data

Results flagged for a closer look

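Each of the 9 genes whose difference between IL10/2-Trikine and mono-IL10 was not the same in NK cells and in non-cycling T cells was picked out by that test. The NK change minus the T cell change, on the log2 scale with edgeR's quasi-likelihood adjusted p, was 2.50 for Ccl5 (0.00868), -1.70 for Tyrobp (0.00868), -1.27 for Fcer1g (0.0110), -3.23 for Ncr1 (0.0229), -2.01 for Ifitm3 (0.0321), -2.73 for Il2ra (0.0334), 3.14 for Lax1 (0.0334), -1.84 for Myo1e (0.0334) and -2.36 for Gzmc (0.0334). The T cell sums of the 3 IL10/2-Trikine mice used are small: they held 14 Ncr1 UMIs, 41 Myo1e UMIs and 3 Lax1 UMIs. With the naive T clusters left out of the T cells, none of the 9 passed, with adjusted p of 0.672 to 1.0.

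A single mouse stood far from the others of its group in 9 of 186 groups of mice checked, where chance gives about 1 in 20. The gap to the nearest mouse, as a share of the group's range on the log2 scale, is given with the mouse's level. Ccr2 was low in PBS mouse 1 (0.844, 28.1 CPM against 234 to 336). Eomes was high in mono-IL10 mouse 2 (0.831, 246.5 CPM against 146 to 159.6). Il2rb was high in mono-IL10 mouse 4 (0.848, 1466 CPM against 1194 to 1232). In that mouse Mcm6 (0.990, 27.8 CPM against 76.3 to 77.0) and Prf1 (0.857, 455 CPM against 904 to 1013) were low. Ldha was high in mono-IL10 mouse 5 (0.857, 468 CPM against 329 to 346) and in IL10/2-Trikine mouse 3 (0.757, 814 CPM against 426 to 499). Srp19 was low in IL10/2-Trikine mouse 1 (0.812, 146 CPM against 206 to 223) and Tcf7 in IL10/2-Trikine mouse 4 (0.791, 11.7 CPM against 56.1 to 79.8). That Tcf7 level is 1 UMI. Without PBS mouse 1 the call of Ccr2 held, and the call of Tcf7 held without IL10/2-Trikine mouse 4; Mcm6 lost its call without mono-IL10 mouse 4.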

How the results depend on the processing

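For IL10/2-Trikine against PBS the 62 calls became 89 with DESeq2 on the same genes, 104 with DESeq2 and no filter on low counts (13920 genes in place of 2448), 41 with mice thinned to the lowest total, 29 with at least 15 NK cells per mouse and 21 in cells with no T cell UMI, and 32 to 58 when a mouse was left out. Of 31 named genes, Actb, Gzma, Ly6a, Mpp7, Thy1 and Xcl1 passed under every alternative in which they were tested. For IL10/2-Trikine against mono-IL10 the 20 calls became 48 without a filter on low counts, 43 with DESeq2 on the same genes, 56 with DESeq2 and no filter, 51 with no minimum of NK cells, 31 with only these groups in the model, 6 after thinning mice and 3 in cells with no T cell UMI, and 8 to 17 when a mouse was left out; of 17 named genes Tpt1 alone passed throughout. For mono-IL10 against PBS the 6 calls became 9 with DESeq2 on the same genes, and 42, 13 and 16 without a filter, with DESeq2 and no filter and with no minimum of NK cells, 3 after thinning and 2 in cells with no T cell UMI, and 2 to 12 when a mouse was left out; of 5 named genes Ly6a alone passed throughout. These counts come from different numbers of genes tested, so they do not compare directly with the main analysis of 2448 genes. Thinning mice left 632 genes to test, cells with no T cell UMI 1414, no minimum of NK cells 2157 and at least 15 NK cells 2850. The share of higher calls for IL10/2-Trikine against PBS was 33 of 62, 26 of 64 with a length trend removed and 13 of 29 with at least 15 cells. No named gene that passed in the main analysis changed direction under any of these settings in which it was tested. The direction of named genes that did not pass was not followed. DESeq2 on the same genes, thinning each cell to equal UMIs, removing the length trend and leaving out naive T clusters were chosen after seeing the data.

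For the difference between NK and T cells, 18, 16 and 14 genes passed without a filter and 1, 23 and 5 with cycling T cells included, and 0, 0 and 1 (Ifitm1) with naive T clusters left out, for IL10/2-Trikine against PBS (0 in the main analysis), against mono-IL10 (9) and mono-IL10 against PBS (0), and 0 to 3, 0 to 9 and 0 to 3 when a mouse was left out. The NK share difference ran from 34.2 to 41.6 points for IL10/2-Trikine against PBS and from 33.8 to 40.2 against mono-IL10 when a mouse was left out. For mono-IL10 against PBS it ran from -2.15 (without PBS mouse 1) to 4.49, was -0.188 without mono-IL10 mouse 5 and -2.50 over all cells of a library. The causes of these shifts were not tested. No paired analysis was possible because each treatment is 1 library and a hashtag number in different libraries marks different mice; only the NK and T cell comparison had a replicate block, by mouse. Depth limits the low genes: in the smallest sum, of 33913 UMIs, the single Ccr2 UMI equals 28.1 CPM.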
